A study of Mus musculus with 4 samples.

Results

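Presynaptic vesicle and endocytosis genes were followed in the dentate gyrus, the part of the hippocampus that holds the granule cells, on 4 two-colour microarrays, 1 at each of 1, 2, 4 and 6 h. The members were the array features whose single platform gene symbol matched a fixed name pattern for synaptotagmins, SNARE proteins and their partners, Rab3, synapsins, active zone proteins, endocytic proteins and vacuolar proton pump subunits. The pattern matched 119 features of 85 genes, and 114 features of 82 genes had a value on at least 1 array, out of 12221 features of 9849 genes with 1 symbol and a value in the whole table. Syt6, Stx2 and Stx19 were matched but had no value on any array. A feature here is 1 spotted probe, and a value of exactly 0 was taken as no value.

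Each array set RNA of mice given MK-801 (300 µg per g body weight as the labels print it), labelled with Cy5, against RNA of mice given saline (5 µL per g), labelled with Cy3. MK-801 is a blocker of the NMDA type of glutamate receptor. All animals were young male C57BL/6J mice. The labels count the hours from a last shock treatment of the MK-801 mice but also call both RNAs those of control mice, so that whether these animals were shocked was not settled. They do not give the number of mice behind each RNA. The printed MK-801 dose is far above those in common use, and the unit printed may be wrong.

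The values are log ratios of the 2 channels, read here as log2 although the labels do not give the base, and centred on each array's median. The labels do not give which channel is on top, so values are described as positive or negative and no treatment is called higher. There was no dye swap and no time was repeated, so a dye effect cannot be told apart from a treatment effect. RNA was taken from whole tissue, in which fewer cells of a type and less RNA per cell cannot be told apart.

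Of the members, 103, 94, 93 and 100 features had a value at 1, 2, 4 and 6 h, and 79 features of 64 genes had one on all 4 arrays. The array at 1 h stood apart from the others. Across the 79 member features its Pearson correlation with the arrays at 2, 4 and 6 h was -0.16, -0.11 and -0.12, while that between 2 and 4 h was 0.42, between 2 and 6 h 0.52 and between 4 and 6 h 0.69. These correlations are descriptions, and all 7684 features gave the same picture, with -0.06, -0.07 and -0.07 for the 1 h array and 0.64, 0.68 and 0.80 for the other pairs. Results are therefore given over all 4 times, over 2, 4 and 6 h, and for the later times against 1 h.

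As background, a synaptic vesicle is filled with transmitter by transporters that run on the proton gradient of the vacuolar proton pump. It docks at the active zone and fuses when a SNARE of the vesicle, Vamp2 in most forebrain synapses, zips up with the target SNAREs Stx1a and Snap25 after calcium binds a synaptotagmin. Nsf and the Snap adaptor proteins then take the SNARE complex apart, and dynamin, amphiphysin, endophilin and synaptojanin retrieve the membrane.

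Over all members the median log ratios were close to those of the whole array. The member medians were -0.01, 0.04, 0.04 and 0.05 at 1, 2, 4 and 6 h, against 0.00 for all features after centring. Positive values were found in 48 of 103, 60 of 94, 51 of 93 and 58 of 100 member features. These are 46.6%, 63.8%, 54.8% and 58%, against 49.8%, 50.6%, 50.5% and 50.5% of all features. The pump median was the highest of the 10 roles at 2 and 6 h. At 1 h the 3 vesicle membrane features with a value had a higher one, 0.37, and at 4 h the SNARE partners had 0.15 against 0.12 for the pump.

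**Figure D1:**
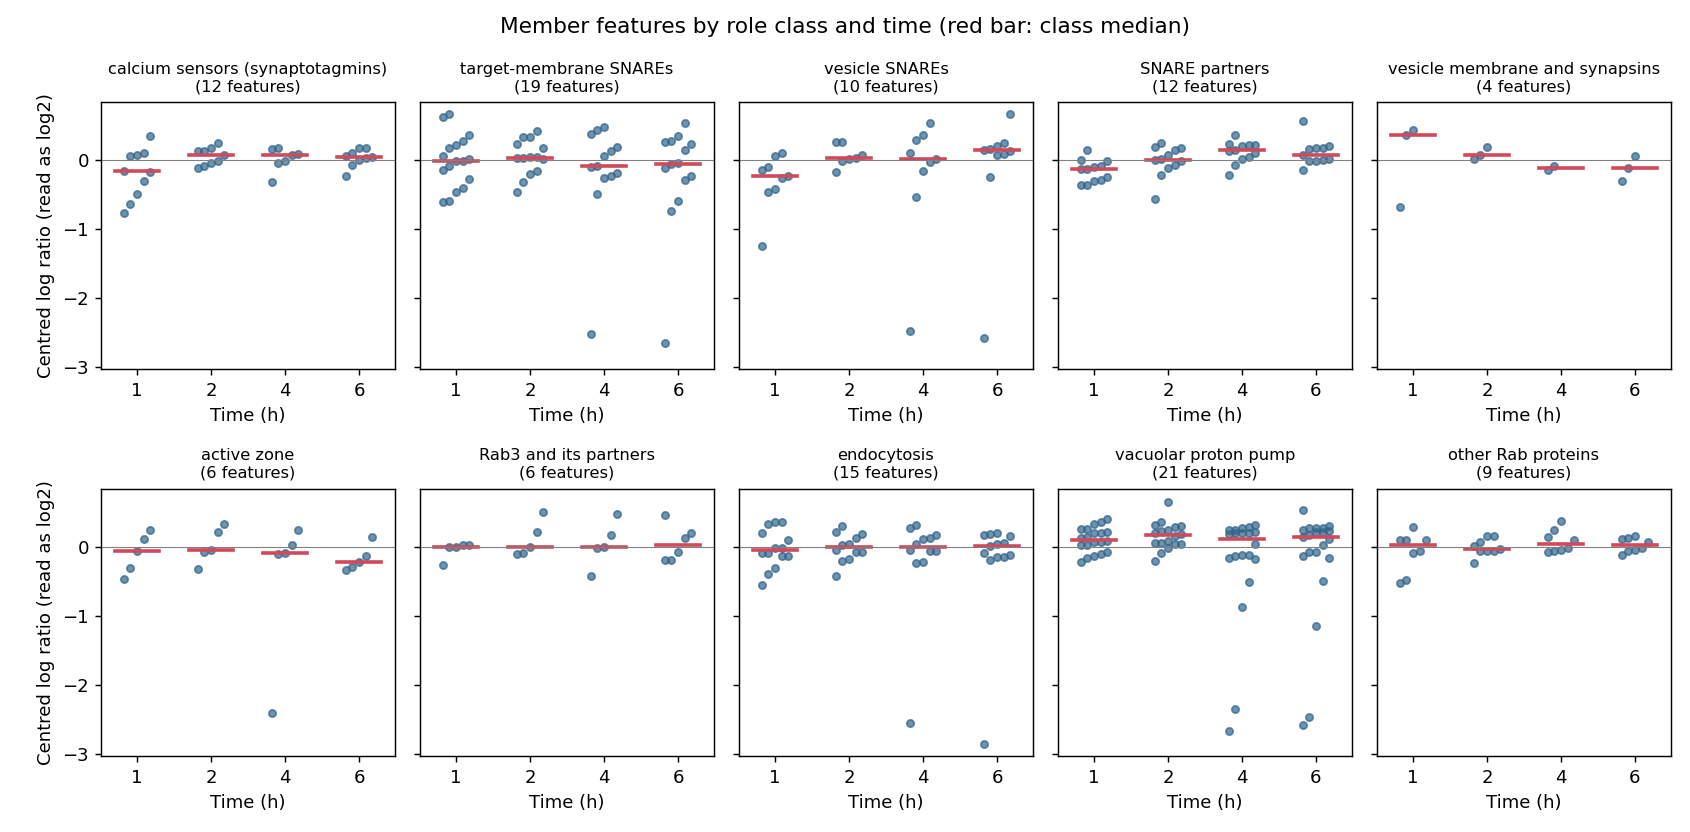
Centred log ratio (read as log2, vertical axis) of every member feature with a value at 1, 2, 4 and 6 h (horizontal axis), with 1 panel for each role and a red bar at the role's median. The proton pump medians were 0.11, 0.18, 0.12 and 0.15, and 6 member features lay at or below -2 at 4 h.

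Shares of members past a fixed size differed from the background in both directions. Log ratios at or above 0.5 were found in 2 of 103 member features at 1 h, or 1.94% (8.9% of all features), 2 of 94 at 2 h, or 2.13% (2.45% of all), 1 of 93 at 4 h, or 1.08% (3.82% of all), and 4 of 100 at 6 h (2.74% of all). At or below -0.5 were 8 member features at 1 h, or 7.77% (6.3% of all), 1 at 2 h, or 1.06% (3.83% of all), 9 at 4 h, or 9.68% (5.29% of all), and 8 at 6 h, or 8% (4.08% of all). Large positive values at 1 h thus made up a smaller share of the members than of the array, and large negative values at 4 and 6 h a larger one. Most of these negative values belonged to the features far below 0 that are described further on. Of the 79 features with a value at every time, 12 were positive on all 4 arrays, or 15.2% (11.6% of all features), and 5 were negative on all 4, or 6.33% (13.9% of all). These shares are descriptions and were not tested.

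The log ratios were fitted in 3 ways with limma over all 7684 features with 1 symbol and a value on every array, and p-values were adjusted over all of them. For the mean over the 4 times, 0 of 79 member features passed an adjusted p of 0.05, with a background of 0% of all features; 12 member features, or 15.2%, had an unadjusted p under 0.05, against 14.8% of all. As no feature of the whole array passed in that fit, its 0 says nothing particular of the members. For the mean over 2, 4 and 6 h, 7 member features were called positive (6.61% of all features) and 2 negative (5.4% of all), which made 9 of 79, or 11.4%, against 12% of all in either direction. For the later times minus 1 h, 5 were called positive (5.91% of all) and 1 negative (4.96% of all), 6 of 79 in all, or 7.59%, against 10.9% of all. The members were thus called about as often as any other features, and the count of calls is not a result about these genes. The median estimate over 2, 4 and 6 h was 0.06 for the members and 0.00 for all features, and 68.4% of members against 50.2% of all features had a positive one.

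These calls depended on the arrays used and on which features were let in. Where a value on fewer arrays was enough, 9 of 97 member features were called over the later times, 3 positive and 6 negative (7.12% of all features). The 6 negative ones were the features far below 0 with no value at 2 h that are described further on. Rab3b, Stx1a and Atp6v1a feature 2014 were still called, while Stx6, Stx8, Stx11 and 3 pump features had adjusted p from 0.0509 to 0.0597. For the later times minus 1 h, 5 were then positive and 4 negative of 91 (9.65% of all), and all 4 negative ones were again such features. Vamp3, with no value at 2 h, was among the positive ones, while Rims2 feature 6028 and Synj2 were no longer called. Without the 4 h array no member feature was called over the later times (0.625% of all features). Without the 6 h array none was either (1.02% of all), and without the 2 h array 4 were (11% of all). The comparison with 1 h rests on 1 array, whose spread was assumed to be like that of the others. Its values were in fact spread more widely, with a median absolute log ratio of 0.22 against 0.16, 0.15 and 0.14 at 2, 4 and 6 h. No member was called in this comparison when the arrays were scaled to an equal spread.

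Stx1a, Snap25 and Vamp2, whose products form the fusion complex of the synaptic vesicle, had negative values at 1 h and positive ones at each later time that gave a value. Stx1a had -0.40, 0.43, 0.44 and 0.54 at 1, 2, 4 and 6 h. Its mean over the later times was 0.47 ± 0.06 (SE, limma adjusted p = 0.0187), positive in 3 of 3 arrays, and it lay 0.87 ± 0.12 above the 1 h value (adjusted p = 0.0226). Snap25 had 0.49 and 0.35 at 4 and 6 h against -0.14 at 1 h. Since it had no value at 2 h, it did not enter the fits over features with a value on every array. Where a value on fewer arrays was enough, Snap25 was tested and was not called. Vamp2 had 2 features, with -0.26, 0.08, 0.30 and 0.67 in one and -0.42, 0.04, 0.54 and 0.08 in the other. Neither Vamp2 feature was called, and the 2 differed most at 6 h.

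Of the other target SNAREs, Stx6, a syntaxin of the trans-Golgi network and endosomes, was called in both comparisons. It had -0.61, 0.24, 0.39 and 0.24 at 1, 2, 4 and 6 h. Its later mean was 0.29 ± 0.06 (SE, limma adjusted p = 0.0412) and its difference from 1 h was 0.90 ± 0.12 (adjusted p = 0.0237). Stx11, known from cytotoxic lymphocytes and platelets, went the other way, with 0.28, -0.20, -0.49 and -0.74, and its later mean of -0.48 ± 0.11 was negative in 3 of 3 arrays (adjusted p = 0.0454). Stx8, an endosomal syntaxin, gave opposite signs in its 2 features. Feature 4377 had -0.46, -0.46, -0.26 and -0.28 and was called negative over the later times (-0.33 ± 0.06, adjusted p = 0.0383), while feature 6392 had 0.18, 0.19, 0.07 and 0.29 and was not called. No direction is therefore given for Stx8. The highest mean of the role was that of a Snap23 feature with a single value, 0.67 at 1 h, while the other feature of this relative of Snap25, found in most cell types, had -0.59 at 1 h and 0.34 at 2 h. Over all 19 target SNARE features the log ratios had medians of -0.01, 0.04, -0.08 and -0.05.

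The vesicle SNAREs had medians of -0.22, 0.04, 0.02 and 0.15, with 2 of 9, 5 of 7, 5 of 9 and 8 of 10 features positive. Of all features, 49.8%, 50.6%, 50.5% and 50.5% were positive at these times. Their highest mean was that of a Vamp5 feature with a single value, 0.26 at 6 h. The lowest value at 1 h of any member, -1.25, was that of Vamp3, a vesicle SNARE of recycling endosomes found in most cell types. It had no value at 2 h and 0.38 and 0.17 at 4 and 6 h. Where a value on fewer arrays was enough, Vamp3 was called for the later times minus 1 h, with a difference of 1.52.

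The synaptotagmins, a family that holds calcium sensors of the vesicle and of other secretory membranes, had medians of -0.16, 0.08, 0.08 and 0.05. Syt1, the main sensor for fast release in the forebrain, had -0.30, -0.01, 0.08 and 0.11 and was not called. Syt5 had -0.76, 0.26, 0.18 and 0.19 and was called for the later times minus 1 h. Its difference of 0.97 ± 0.11 (SE) was the largest of any called member feature with a value on every array. Syt10 had -0.64 at 1 h as well, with 0.08, -0.31 and -0.22 after it, and was not called. The role's highest mean was that of a Syt7 feature with a single value, 0.18 at 6 h.

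Partners that fold, clamp or take apart the SNARE complex had medians of -0.12, 0.01, 0.15 and 0.08. At 4 h 10 of 12 features were positive (50.5% of all features), and at 1 h 2 of 12 (49.8% of all). Nsf, the ATPase that takes the complex apart, had -0.24, 0.15, 0.14 and 0.17. Its adaptor Napa had -0.36, -0.06, 0.16 and 0.01. Cplx1, a complexin that clamps and primes the complex, had -0.10, 0.20, 0.23 and 0.19, and Cplx2 had -0.12, 0.02, 0.02 and 0.18. Stxbp2, a Munc18 protein that binds syntaxins, had -0.12, 0.25, 0.22 and 0.57, and its relative Stxbp3 had -0.28, -0.22 and -0.22 at 1, 2 and 4 h. Napb, another Nsf adaptor, had 3 features, whose values ranged from -0.30 to 0.01 at 1 h, from -0.56 to 0.01 at 2 h, from 0.11 to 0.37 at 4 h and from -0.01 to 0.21 at 6 h. Of the 11 features of these partners that were tested, none was called in any of the 3 fits.

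**Figure D2:**
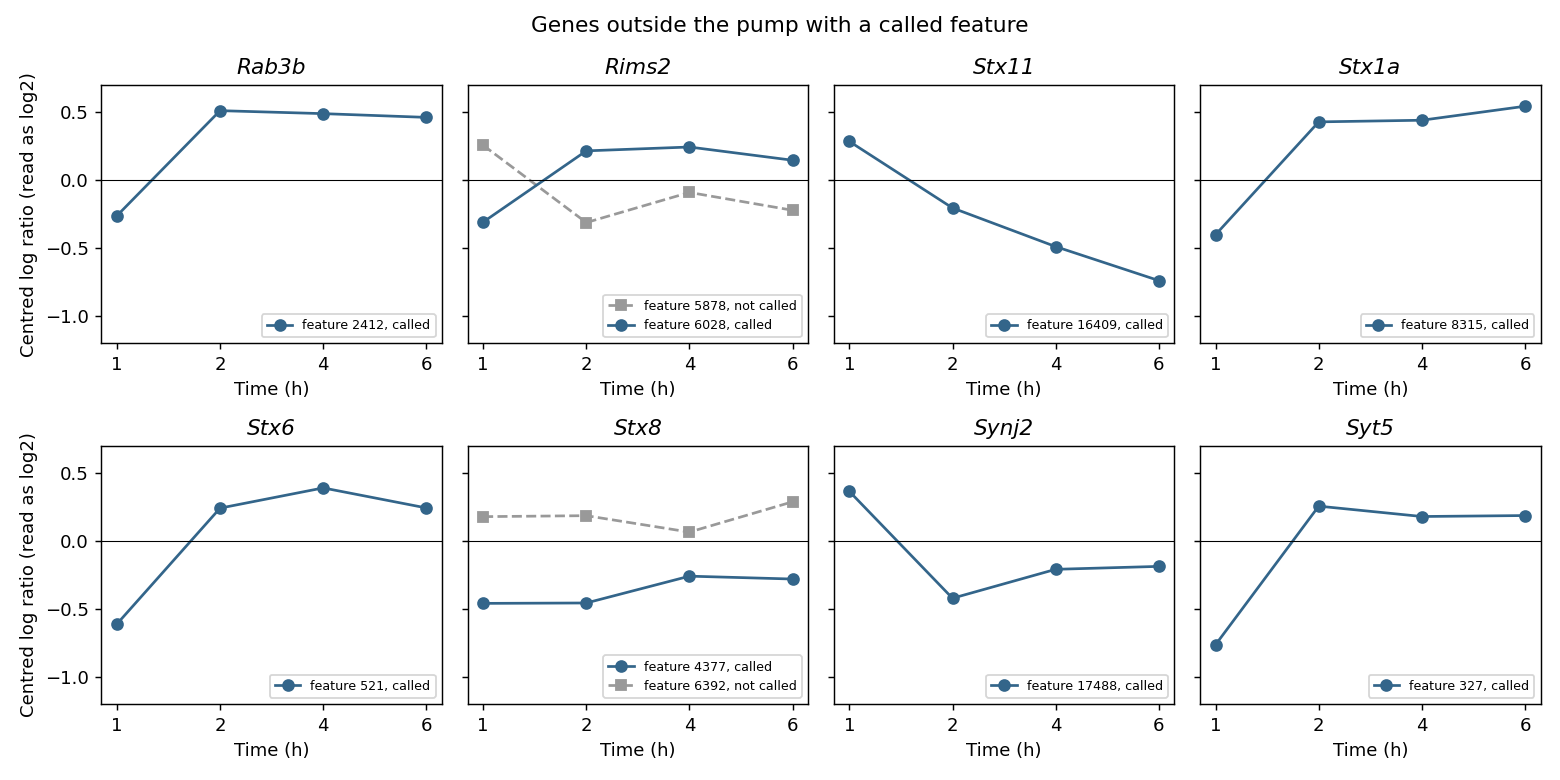
Centred log ratio (read as log2, vertical axis) at 1, 2, 4 and 6 h (horizontal axis) for 8 genes outside the pump. Each had a feature called among those with a value on every array, shown as a solid blue line. Any other feature of the same gene is shown as a grey dashed line. Stx1a, Rab3b, Stx6 and Syt5 lie below 0 at 1 h and above 0 at each later time, and the 2 features of Rims2 and of Stx8 have opposite signs at every time.

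At the active zone, where vesicles dock, Rims2, a scaffold that binds Rab3 and calcium channels, again gave opposite signs in its features. Feature 6028 had -0.31, 0.22, 0.24 and 0.15 and was called for the later times minus 1 h (0.51 ± 0.11 SE, limma adjusted p = 0.0454). Feature 5878 had 0.26, -0.31, -0.09 and -0.22 and was not called, so no direction is given for the gene. Pclo, a giant scaffold of the active zone, was negative on all 4 arrays, with -0.47, -0.07, -0.10 and -0.28, and its relative Bsn had values only at 2 h (0.34) and 6 h (-0.33).

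Rab3b, 1 of the Rab3 GTPases that tether vesicles, had -0.26, 0.51, 0.49 and 0.46. The 3 later values lay within 0.05 of each other, and their mean was 0.49 ± 0.05 (SE, limma adjusted p = 0.0151), 0.75 ± 0.11 above the 1 h value (adjusted p = 0.0258). Of its relatives, none was called. Rab3a, the main Rab3 of brain synapses, had 0.00, 0.21, 0.18 and 0.20 in the feature measured on every array, and Rab3c had 0.00, 0.01, -0.43 and -0.06. The pattern of names also took in 9 features of the Rab proteins numbered in the thirties, which are no Rab3 proteins, and their medians were 0.02, -0.02, 0.05 and 0.04. The highest mean among them was that of Rab38 (0.29, -0.23, 0.38 and 0.12) and the lowest that of Rab37, which had -0.52 and 0.16 at 1 and 2 h.

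Vesicle membrane proteins gave few values. Syp, the vesicle membrane protein synaptophysin, had 0.37 and 0.02 at 1 and 2 h, no value at 4 h and -0.30 at 6 h. Syn2, a synapsin that ties vesicles to the cytoskeleton, had 0.44, 0.08, -0.14 and 0.06. Syn3, a further synapsin, had a single value, -0.68 at 1 h, opposite in sign to Syp and Syn2 at that time. Sv2a, a vesicle glycoprotein, had no value at 1 h and 0.20, -0.09 and -0.11 after it.

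Endocytosis proteins had medians of -0.05, 0.00, 0.00 and 0.02. The neuronal dynamin Dnm1, the GTPase that pinches vesicles off, had -0.31, 0.30, 0.13 and 0.16 in feature 9666 and was not called. Endophilin Sh3gl2, a protein that bends membrane and recruits synaptojanin, had -0.13, 0.13, -0.05 and 0.06. Dnm2, the dynamin of most cell types, had 3 features, and the role's highest mean was that of the one with a single value, 0.33 at 1 h, where the others had -0.39 and -0.55. Snap91, a clathrin adaptor, had -0.01, -0.08 and -0.14 at 1, 2 and 6 h. Synj2, an inositol phosphatase of the synaptojanin family, had 0.36, -0.42, -0.21 and -0.19, and the later times lay below 1 h (-0.64 ± 0.14 SE). Among member features with a value on every array, Synj2 was the only one called with that direction.

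The vacuolar proton pump, which acidifies vesicles, endosomes and lysosomes in every cell, gave 4 of the 7 positive calls over the later times. These were 4 of its 17 features tested, against 6.61% of all features called positive. The pump gave no positive call for the later times minus 1 h. Of its 21 features, 15 of 20 were positive at 1 h (49.8% of all features), 15 of 18 at 2 h (50.6% of all), 11 of 20 at 4 h (50.5% of all) and 13 of 21 at 6 h (50.5% of all). Of the 17 pump features with a value on every array, 8 features of 6 genes (Atp6v0e, Atp6v1a, Atp6v1b2, Atp6v1c1, Atp6v1d and Atp6v1e1) were positive on all 4, which is 47.1% against 11.6% of all features. That share is a description: features of 1 gene share their target, and the group was chosen with earlier results known. It also leaves out features of Atp6v0d1, Atp6v1a and Atp6v1d that lay far below 0 at 4 and 6 h, since these had no value at 2 h. Of the 6 genes, Atp6v1a, Atp6v1c1, Atp6v1d and Atp6v1e1 each had another feature with a negative value on at least 1 array.

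Atp6v1a, the catalytic subunit, had 0.27, 0.30, 0.28 and 0.27 in feature 2014, nearly the same value at every time. Its later mean was 0.28 ± 0.05 (SE, limma adjusted p = 0.0356). The other Atp6v1a feature had no value at 1 or 2 h, and -0.87 and -1.15 at 4 and 6 h. Atp6v1d, a subunit of the central stalk, had 0.33, 0.31, 0.29 and 0.22 in feature 13674 and was also called (0.27, adjusted p = 0.0412). Its other feature had 0.37 at 1 h, no value at 2 h, and -2.34 and -2.59 at 4 and 6 h. Where a value on fewer arrays was enough, the other features of Atp6v1a and Atp6v1d were called negative over the later times. No direction is therefore given for either gene. Atp6v0a1, the membrane subunit isoform known from neurons and synaptic vesicles, was called in feature 12856, with -0.09, 0.24, 0.32 and 0.26 (0.27, adjusted p = 0.0409). Its other feature had 0.09, 0.04, -0.13 and -0.13, which differs in sign at 1, 4 and 6 h. Atp6v1c1, a subunit that helps join the 2 parts of the pump, was called in 1 of its 3 features (0.24, adjusted p = 0.0451). That feature had -0.13, 0.25, 0.25 and 0.22, while the others had 0.03, 0.16, 0.21 and 0.28, and 0.22, 0.19, 0.21 and 0.23. All 3 Atp6v1c1 features were thus positive at 2, 4 and 6 h.

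Atp6v1e1, a subunit of the outer stalk, had 0.21, 0.66, 0.26 and 0.28 in feature 16646, with an adjusted p of 0.0509 over the later times. Its other feature had 0.08 and -0.01 at 1 and 2 h, no value at 4 h and 0.17 at 6 h. Atp6v1b2, the B subunit isoform of brain, was positive at every time in both features. Atp6v1b1, the B subunit isoform known from kidney and inner ear, had 0.40, -0.08, -0.51 and -0.50 and was not called.

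**Figure D3:**
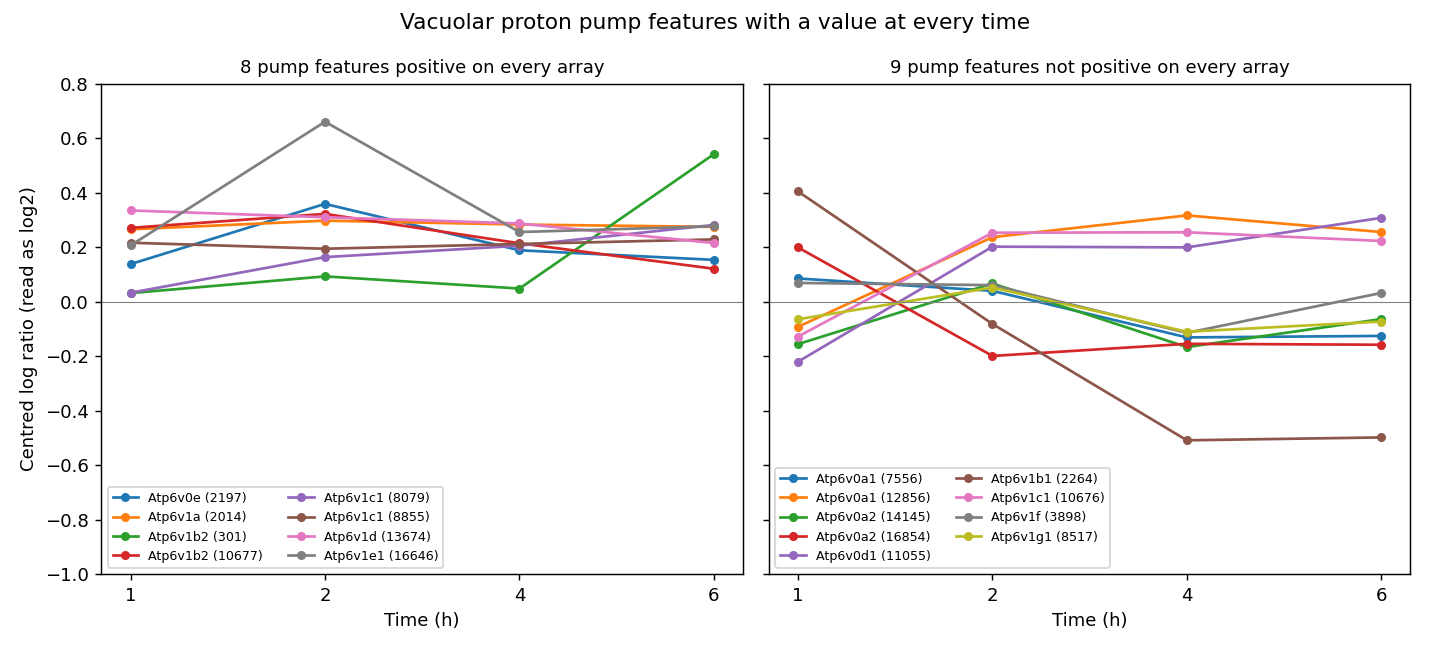
Centred log ratio (read as log2, vertical axis) at 1, 2, 4 and 6 h (horizontal axis) of the 17 proton pump features with a value on every array, split into the 8 that were positive on every array (left) and the 9 that were not (right). The lines on the left run above 0 throughout, and that of Atp6v1a feature 2014 stays between 0.27 and 0.30.

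Promoter sequence was read from RefSeq (GRCm38.p6), in a short window around the annotated start, for 64 of the 82 member genes, of which 8 were pump genes out of 12. The 8-letter word TCACGTGA, its own reverse complement, is the core of the element that the lysosomal regulator TFEB is known to bind in pump genes, and it holds the E-box CACGTG. It was searched because of the pump values, after these had been seen. It stood in 4 of 64 member promoters (6.25%), against 1.13% of 27025 genes in the table, and in 3 of the 8 pump promoters (37.5%). The E-box alone stood in 9 member promoters (14.1%), against 8.09% of all. The cyclic AMP response element TGACGTCA, the site of a factor of activity-dependent transcription, stood in the promoters of Napa, Sh3gl2 and Stxbp3 (4.69%, against 2.03% of all) and in none of the 8 pump promoters. The stretches around the 4 TCACGTGA matches are shown because Stx6 and Atp6v1a have a called feature with a value on every array. They run 5′ to 3′ along the gene, with the word in capitals.
Atp6v1a: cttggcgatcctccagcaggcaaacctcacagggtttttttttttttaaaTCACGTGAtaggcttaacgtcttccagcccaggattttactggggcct
Atp6v0d1: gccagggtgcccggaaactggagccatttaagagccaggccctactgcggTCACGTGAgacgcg
Atp6v0e: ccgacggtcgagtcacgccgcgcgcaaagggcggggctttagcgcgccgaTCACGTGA
Stx6: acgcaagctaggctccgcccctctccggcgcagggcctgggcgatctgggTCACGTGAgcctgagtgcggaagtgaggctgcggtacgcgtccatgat
They lie at chr16:44139344-44139441 (minus strand), chr8:105566055-105566118 (minus strand), chr17:26676348-26676405 (plus strand) and chr1:155158567-155158664 (plus strand). Counted from the annotated start, with negative positions before it, the word begins at -132 in Atp6v1a, at -4 in Atp6v0d1, at -86 in Stx6 and at 2 in Atp6v0e. Of the other matched genes, Atp6v0e had 0.14, 0.36, 0.19 and 0.15 and Atp6v0d1 had -0.22, 0.20, 0.20 and 0.31 in feature 11055, and neither feature was called. The other features of Atp6v0d1 and Atp6v1a lay far below 0 at 4 and 6 h. They were called negative over the later times where a value on fewer arrays was enough. A match is a match of letters and shows no binding.

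Part of the spread among the members came from features far below 0 at 4 and 6 h. Of 93 member features with a value at 4 h, 6 lay at or below -2 (6.45%), against 149 of 8903 features in all (1.67%). They belonged to Atp6v0d1 (-2.67 at 4 h and -2.47 at 6 h), Atp6v1d (-2.34 and -2.59), Dnm1 (-2.55 and -2.86), Stx5a (-2.51 and -2.66), Vamp7 (-2.48 and -2.58) and Unc13b (-2.41, with no value at 6 h). Those with a value at 1 h lay between -0.08 and 0.37 there, and none of the 6 had a value at 2 h. A second Atp6v1a feature went the same way less far, with -0.87 and -1.15. For each of these 7 genes another feature was on the array, and none of its values lay below -0.58. Dnm1 had 0.13 and 0.16 at 4 and 6 h in feature 9666, Atp6v1d 0.29 and 0.22 in feature 13674, and Unc13b, a priming factor of the active zone, 0.03 and -0.13 in feature 9765. The other Vamp7 feature had -0.46, -0.01, -0.53 and -0.23 at 1, 2, 4 and 6 h, negative at each time. The other Stx5a feature had no value at 1 or 4 h, 0.02 at 2 h and -0.58 at 6 h.

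Such values went with a missing value at 2 h over the whole array. Of all features with a value at 4 h but none at 2 h, 23.6% lay at or below -2 at 4 h (members, 6 of 11), against 0.497% of features with a value at both times (members, 0 of 82). Whether spots of low signal gave these ratios was not tested, since the table holds no intensities. Without the 7 features the pump medians were 0.20 at 4 h and 0.19 at 6 h, and the 3 fits over features with a value on every array held none of the 7. The fits that allowed values on fewer arrays did hold them, as given above.

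**Figure D4:**
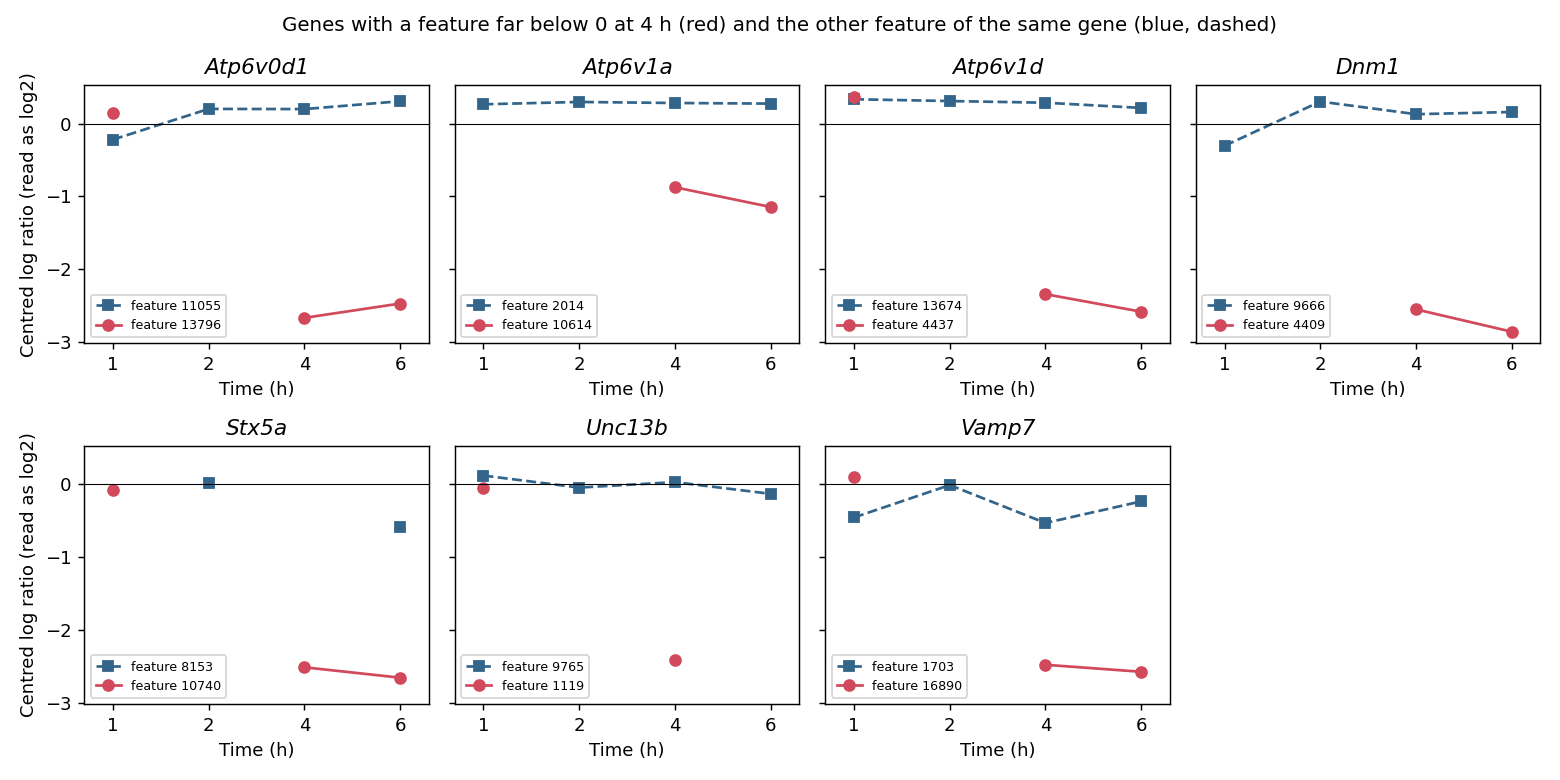
Centred log ratio (read as log2, vertical axis) at 1, 2, 4 and 6 h (horizontal axis) for the 7 genes with a feature far below 0 at 4 h, as red solid lines, and for the other feature of the same gene, as blue dashed lines. The red features have no value at 2 h and reach -2.86 at 6 h, while no blue value lies below -0.58.

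Features of the same gene disagreed often. Among member genes with more than 1 feature, the median range between features was 0.31, 0.18, 0.32 and 0.32 at 1, 2, 4 and 6 h, against 0.33, 0.21, 0.21 and 0.17 over all such genes. Features of opposite sign were found in 16 of 23 member genes at 1 h (69.6%, against 49.3% of all), 8 of 15 at 2 h (53.3%, against 48%), 11 of 21 at 4 h (52.4%, against 41.5%) and 12 of 24 at 6 h (50%, against 40.4%). A range of at least 1 was found in 6 of 21 member genes at 4 h (28.6%, against 10.1% of all) and 6 of 24 at 6 h (25%, against 5.98%). At both times these were all genes with a feature far below 0, as described above. A single feature is therefore not read as the level of its gene.

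Other genes of the presynaptic terminal and of clathrin endocytosis, outside the name pattern, were read from a list of 65 names, of which 39 genes had a value. Of 39 features tested, 5 were called positive and 1 negative over the later times, and 2 positive for the later times minus 1 h, with 6.61% and 5.4% of all features called positive and negative over the later times and 5.91% positive against 1 h. The genes named here were chosen after their values were seen. Ap2m1, the cargo-binding subunit of the clathrin adaptor AP2, was called in both features, with 0.46, 0.35, 0.27 and 0.28 in one and -0.10, 0.32, 0.27 and 0.38 in the other. Dnajc5, a chaperone of Snap25, had 0.00, 0.42, 0.45 and 0.24, and Syngr3, a vesicle membrane protein, had -0.15, 0.29, 0.24 and 0.23. Scamp3, a membrane protein of endosomes and secretory carriers, had -0.38, 0.53, 0.39 and 0.30 in 1 feature, which was called in both comparisons. Its other feature had -0.34, 0.00, 0.24 and 0.11 and was called in neither. The negative call was 1 feature of Lin7c, at -0.76, -1.37, -1.98 and -1.52, while another feature of that gene had -0.25, 0.18, -0.07 and -0.01. The list's medians were -0.07, 0.05, -0.01 and 0.02.

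A ratio gives no level, so the tissue could not be checked by how strongly its markers were expressed. Of 8 granule cell markers 5 genes had a value, with medians of -0.23, 0.00, -0.10 and -0.05, and none was called. Prox1, a transcription factor of granule cells, had -0.57, 0.04, 0.60 and 0.21. Over the later times, 3 of 11 astrocyte, 1 of 8 oligodendrocyte and 2 of 9 microglia features tested were called positive (6.61% of all features). Called negative were 1 of 4 vessel and 2 of 4 choroid plexus features (5.4% of all), and no call fell on the 7 inhibitory neuron features. Those called over the later times, named after their values were seen, were Aldoc, Gfap, Slc1a3, Mog, Ctss, Tyrobp, Flt1, Kl and Ttr. The Kl call was 1 feature, with 0.20, -2.64, -3.03 and -3.18, while another had -0.24, -0.20, -0.11 and -0.09 and was not called. For the later times minus 1 h, Sst of inhibitory neurons, Cldn5 of vessels and Gfap were called positive, and the same Kl feature negative. Other markers of the same cells were not called, such as Csf1r of microglia, with -0.14, -0.24, -0.14 and -0.18, and a second Mog feature, with 0.04, -0.07, 0.06 and 0.03. Of the astrocyte markers, Aqp4, with -0.14, -0.01, -0.25 and -0.09, and a Slc1a2 feature, with 0.28, -0.22, -0.03 and -0.23, were not called either. The medians were -0.05, 0.05, -0.03 and 0.07 for astrocytes, -0.02, 0.10, 0.13 and 0.05 for oligodendrocytes, 0.22, 0.02, 0.00 and 0.16 for microglia, -0.06, 0.10, 0.17 and 0.12 for inhibitory neurons, and -0.03, -0.41, -0.38 and -0.19 for the choroid plexus. Vessel features had medians of -0.01, -0.16, 0.00 and 0.17. The part of all these shifts in the members' values was not tested.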

How the data were processed

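RNA of the dentate gyrus was measured on 4 two-colour arrays, 1 per time. The deposited values are 1 log ratio per feature, read as log2, with an exact 0 as no value; the scanner, background correction, normalisation, log base and direction of the ratio are not given in the sources used here. From these values, features with 1 gene symbol in the platform annotation were kept, and each array was centred on its median of non-zero values (0.0074, 0.0093, 0.0165 and 0.0052 before centring, at 1, 2, 4 and 6 h). All member gene IDs matched the RefSeq gene table. A member is a feature whose symbol matched the name pattern and that had a value on at least 1 array.

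Each feature was fitted alone with limma 3.58.1 (R 4.3.3; lmFit and eBayes) over 7684 features, for the mean over 4 times, the mean over 2, 4 and 6 h and the later times minus 1 h, with Benjamini-Hochberg adjustment at 0.05. Arrays of different times stood in for replicates, so an error covers the spread between times, and the p-values do not measure the spread between mice. Calls were made per feature because features of a gene disagree. Gene means, over features with a value on every array, were an alternative. The scripts were tested on simulated data. The named genes were those called, a fixed set of well known members where they had a value, and the feature with the highest and that with the lowest mean in each role; ranges between features of a gene are summarised. The members, lists and fits were chosen with earlier results of these data known, and the fits over the later times because the 1 h array was known to stand apart. Alternatives were array weights, equal spread, gene means, values on fewer arrays allowed, exact 0 as a value, a slope on log2 hours, no centring, other thresholds and leaving out each array. With 1 array per time, the number of arrays limits the precision.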

Additional observations from a re-analysis of the deposited data

Results flagged for a closer look

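In 6 member features the later values differed from the 1 h value in the test of that difference (limma, adjusted over all features). The later times lay above 1 h by 0.97 for Syt5, 0.90 for Stx6, 0.87 for Stx1a, 0.75 for Rab3b and 0.51 for Rims2 feature 6028, and the difference was -0.64 for Synj2. All 6 rest on the single 1 h array, and none of the 6 was called when the arrays were scaled to an equal spread. The other Rims2 feature was opposite in sign at every time.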

How the results depend on the processing

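Percentages in brackets are members and then all features called. For the mean over the 4 times (0 called), array weights gave 26 (32.9%, 27.2%), and leaving out each array gave 0 to 9, with 9 without the 1 h array (11.4%, 12%). For the mean over 2, 4 and 6 h (9 called), array weights gave 24 (30.4%, 26.9%) and an exact 0 read as a value 0 (0%, 0.106%). Gene means gave 11 of 64 genes (17.2%, 12.9%). Leaving out the 4 h array gave 0 (0%, 0.625%), the 6 h array 0 (0%, 1.02%) and the 2 h array 4 (5.06%, 11%). For the later times minus 1 h (6 called), array weights gave 23 (29.1%, 24.9%), an equal spread 0 (0%, 0.351%), an exact 0 read as a value 16 (14%, 11.7%), a slope on log2 hours 0 (0%, 0%), and leaving out an array 1 to 9, with 1 without the 4 h array (1.27%, 1.39%) and 3 without the 6 h array (3.8%, 2.92%). In that comparison the 9 came without the 2 h array (11.4%, 17.3%), where members were called less often than all features. With a threshold of 1 in place of 0.5, the members past it were 1, 0, 6 and 6 at 1, 2, 4 and 6 h in place of 10, 3, 10 and 12 (0.971%, 0%, 6.45% and 6% of members, 2.13%, 0.969%, 2.21% and 1.6% of all), and an equal spread gave 4 at 1 h (3.88%, 7.96%). Gene means took in only features with a value on every array. Calls on 1 of 2 such features that disagreed were lost: Rims2 came to 0.02 (limma adjusted p = 0.904), Stx8 to -0.08 (0.390) and Atp6v0a1 to 0.10 (0.249). The features of Atp6v1a and Atp6v1d far below 0 did not enter the means, so that both genes stayed called. No called feature reversed its sign. Adjusted p ranged from 0.00643 to 0.0964 for Stx1a and from 0.00581 to 0.0872 for Rab3b over the later times, and from 0.0149 to 0.164 for Atp6v1a. The members' median was -0.08 at 1 h without pump and other Rab features, and -0.02 at 4 h with an exact 0 as a value. The medians without the features far below 0 were chosen after seeing the data. Causes of other shifts were not tested. No paired analysis was possible because each time had 1 array, and no error for a single time can be given.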
